A study of Oryza sativa with 6 samples.

Results

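The iron uptake and phytosiderophore genes of rice are a list of 10 gene IDs, taken in the order IRT1, IRT2, YSL15, NAS1, NAS2, NAS3, DMAS1, TOM1, IRO2 and IRO3. Of these, 9 had a row among the 37938 loci of the deposited table, and 8 had at least 1 read in some library. TOM1 (Os11g0134900) had no row and was not analysed here. The names are those given with the list of IDs, since the deposited files hold IDs alone. RNA was sequenced from roots of the rice cultivar IR29, described by the series as sensitive to salinity. All 6 groups shared that genotype and a growth regime of 30 °C by day and 25 °C by night. They were nodal roots, S-type lateral roots and L-type lateral roots, each under control conditions or with 50 mM NaCl, in a treatment of 7 days. Each group was 1 library, and the labels do not give the number of plants behind it.

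Rice takes up iron by both known plant routes. It imports ferrous iron directly through the transporters IRT1 and IRT2, and it also secretes a chelator, deoxymugineic acid, that binds ferric iron in the soil. The chelator is made from S-adenosylmethionine by way of nicotianamine: nicotianamine synthases (NAS1, NAS2 and NAS3) make nicotianamine, and DMAS1 catalyses the last step to deoxymugineic acid. TOM1 exports the chelator, and YSL15 brings the ferric complex back into the root. IRO2 is a basic helix-loop-helix (bHLH) transcription factor that promotes the expression of this pathway under iron deficiency, and IRO3 is a bHLH factor known as a negative regulator of the same response.

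Library depth ran from 3839177 to 4249872 reads over all loci. Levels are given as scaled reads, which are reads brought to a common library of 4013580 with TMM factors between 0.799 and 1.17. With 1 library per group there is no spread between replicates, so intervals beside single values reflect the counting of reads alone. Copies made by PCR are not independent molecules. All 4 loci listed as root markers had reads in every library, although 1 of them had 1.3 scaled reads in the salt S-type library. The 10 photosynthesis loci listed as markers of shoot tissue summed to 86.1 scaled reads in control nodal, 45.3 in control S-type and 105.8 in control L-type roots. Under salt they summed to 2400.0, 33.5 and 991.3. By these sums the salt nodal and salt L-type libraries stood apart from the other 4. Of the 10 loci, 2 were at 0 in each S-type library, 1 in control L-type roots and 0 in the other libraries.

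Within the control nodal library, the nicotianamine synthases NAS2 and NAS1 had the highest levels of the group per transcript length. In the authors' FPKM (a level corrected for transcript length), NAS2 stood at 413 and NAS1 at 298. DMAS1 followed at 96.5, IRO2 at 53.3 and YSL15 at 49.1. NAS3 stood at 13.0, IRO3 at 2.78 and IRT1 at 0.194, and IRT2 was listed at 0. In control S-type roots the order was NAS1 (221), NAS2 (121), YSL15 (101), IRO2 (94.0), DMAS1 (58.7) and IRO3 (15.9). In control L-type roots IRO2 had the highest FPKM of the group, 79.4, followed by NAS2 at 47.4 and NAS1 at 35.7. YSL15 there stood at 3.80.

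**Figure D1:**
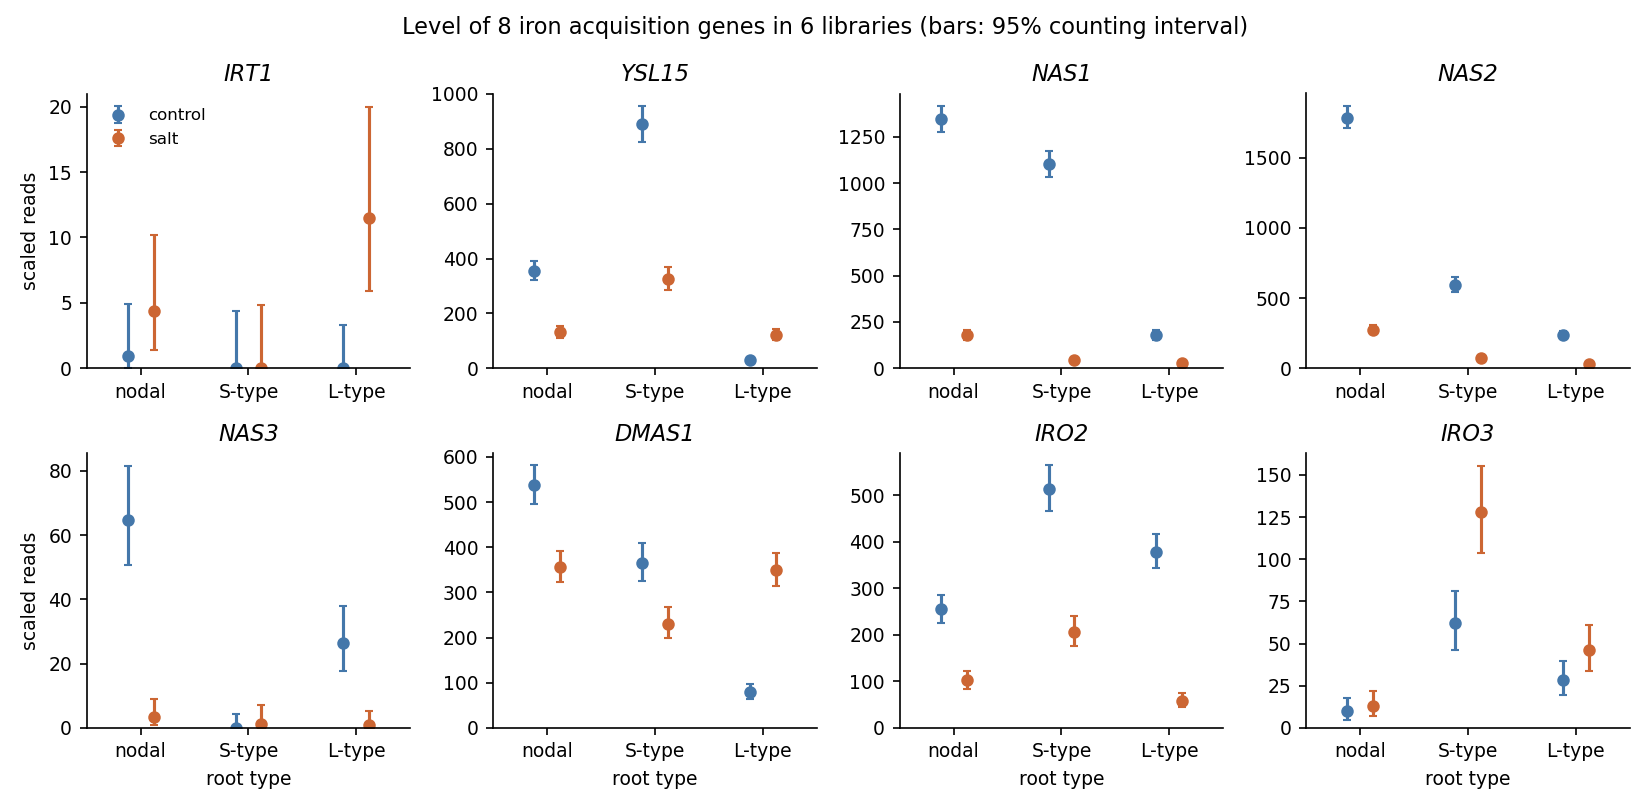
Scaled reads (vertical axes, linear, each with its own range) of 8 iron acquisition genes in the 3 root types; blue points are control and orange points salt libraries, 1 library each, and bars are 95% counting intervals. NAS1 and NAS2 are lower under salt in each root type, from 1345.0 to 178.2 scaled reads for NAS1 in nodal roots, while DMAS1 in L-type roots is higher, 348.9 against 78.5.

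Under salt, the transcripts of NAS1, NAS2 and IRO2 were lower than under control in all 3 root types. YSL15 was lower in nodal and S-type roots and higher in L-type roots, and DMAS1 was also higher in L-type roots. NAS3 was lower in nodal roots, and IRO3 was higher in S-type roots. A gene was counted as lower or higher by a rule of size with 3 conditions. Its log2(scaled reads + 1) had to differ by 2-fold or more, the larger of both levels had to reach 50 scaled reads, and the 95% conditional binomial interval of the ratio (exact, counting error only) had to leave out 1. In bulk roots, fewer cells of a type and less RNA per cell cannot be told apart.

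By this rule 5 of the 9 genes with a row were lower and 0 higher in salt nodal roots, where 6.05% of 25366 loci were lower and 6.67% higher. In S-type roots 4 were lower and 1 higher, where 6.61% of 23936 loci were lower and 2.61% higher. In L-type roots 3 were lower and 2 higher, where 5.93% of 24710 loci were lower and 8.77% higher. The 9 genes include IRT2, which had no reads, while the loci had reads in either library. The median log2 change of the 8 genes with reads in some library was -1.36 for nodal roots, -0.99 for S-type roots and -0.98 for L-type roots. IRT1 had no reads in either S-type library and entered the S-type median as 0. Over all loci with reads in either library the medians were 0.02, -0.09 and 0.11. The list was chosen with results of these libraries known, so the counts describe it and are not a test. The photosynthesis markers were higher in the same salt nodal and salt L-type libraries, and their part in these changes was not tested. In S-type roots those markers summed to 45.3 under control and 33.5 under salt.

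NAS1 and NAS2 are tandem genes on chromosome 3, NAS2 (Os03g0307200) at 10926386 to 10928005 and NAS1 (Os03g0307300) at 10929506 to 10930895 in the coordinates of the deposited table (build IRGSP-1.0). NAS1 had 1345.0 scaled reads in control nodal, 1100.9 in control S-type and 178.1 in control L-type roots. Under salt it had 178.2, 43.8 and 27.7. Its highest salt library was level with its lowest control library, 178.2 against 178.1, and the other salt libraries lay below all controls.

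The salt difference of NAS1 was 7.55-fold in nodal roots (95% counting interval 6.52 to 8.78), 25.1-fold in S-type roots (17.8 to 36.5) and 6.43-fold in L-type roots (4.34 to 9.84), lower each time. NAS2 had 1785.3, 595.7 and 234.6 scaled reads in control nodal, S-type and L-type roots, and 275.1, 72.2 and 29.6 under salt. It was 6.49-fold lower in nodal roots (5.76 to 7.33), 8.25-fold lower in S-type roots (6.25 to 11.1) and 7.91-fold lower in L-type roots (5.44 to 11.9). The salt difference of NAS2 thus lay within a narrow range over the root types. The ratio of NAS2 in control L-type against salt nodal roots, neighbours in its order of levels, was within counting error. NAS1 and NAS2 are close copies, and the sources used here do not say how a read that fits both was counted.

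NAS3 (Os07g0689600, chromosome 7, 29323097 to 29324607) is the third nicotianamine synthase. It had 73 reads in control nodal, 0 in control S-type and 30 in control L-type roots, and 4, 1 and 1 reads under salt. In scaled reads it went from 64.8 to 3.5 in nodal roots, an 18.6-fold lower level with a 95% counting interval of 6.94 to 69.9. In L-type roots it was 27.7-fold lower, but with 1 salt read the interval ran from 4.60 to 1130.0, and its control level of 26.5 scaled reads was under the minimum of the rule. In both S-type libraries NAS3 was at or under the floor of 3 reads, so no fold is given there.

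IRO2 (Os01g0952800, chromosome 1, 41971443 to 41978093), the bHLH factor that promotes the pathway, was lower under salt in each root type. It had 254.8, 513.5 and 378.3 scaled reads in control nodal, S-type and L-type roots, and 102.2, 206.3 and 58.3 under salt. All 3 control libraries stood above all 3 salt libraries. The difference was 2.49-fold in nodal roots (2.0 to 3.12), 2.49-fold in S-type roots (2.07 to 3.0) and 6.49-fold in L-type roots (4.95 to 8.63). The interval of IRO2 also holds the locus Os01g0952900, which had 9.8 scaled reads in control nodal, 1655.0 in control S-type and 112.0 in control L-type roots, and 0.9, 2223.0 and 308.8 under salt. The libraries kept strand information per the labels' protocols, but whether the counting used it is not given, so reads of that locus cannot be told apart from IRO2 with certainty.

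**Figure D2:**
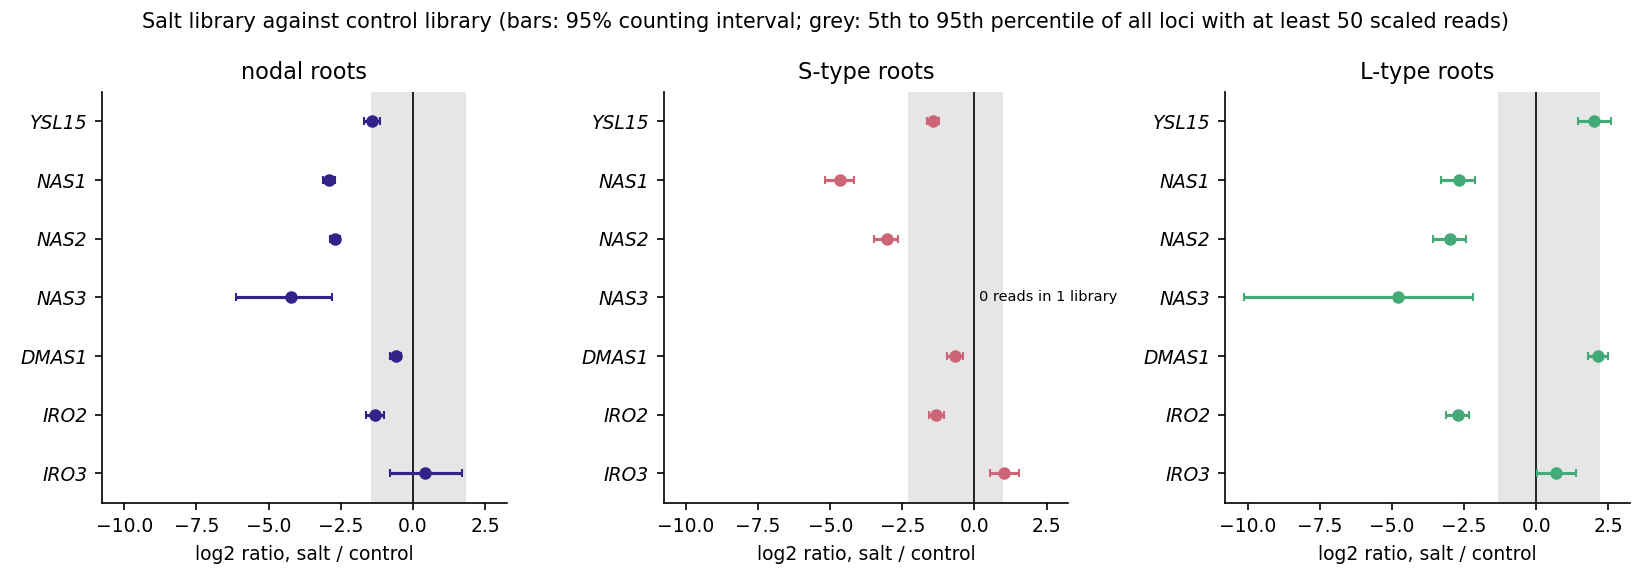
Log2 ratio of scaled reads, salt over control (horizontal axes), for 7 genes in nodal, S-type and L-type roots, 1 library against 1 library; bars are 95% counting intervals and the grey band spans the 5th to 95th percentile of the log2(scaled reads + 1) change of all loci with at least 50 scaled reads. NAS1 and NAS2 lie left of the band in all 3 root types, and YSL15 and DMAS1 lie right of 0 only in L-type roots.

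YSL15 and DMAS1, which act at opposite ends of the chelator's path, had salt differences of opposite sign in different root types. YSL15 (Os02g0650300, chromosome 2, 26200021 to 26204916) had 354.2, 888.8 and 30.0 scaled reads in control nodal, S-type and L-type roots, and 131.9, 324.9 and 121.4 under salt. Control S-type roots had the highest and control L-type roots the lowest level. YSL15 was 2.69-fold lower under salt in nodal roots (2.22 to 3.26) and 2.74-fold lower in S-type roots (2.37 to 3.17). In L-type roots it was 4.05-fold higher under salt (2.75 to 6.10). Salt nodal and salt L-type roots did not differ beyond counting error, with a ratio of 1.09 (0.852 to 1.39).

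DMAS1 (Os03g0237100, chromosome 3, 7228679 to 7231670), the enzyme of the last step, had 538.0, 365.8 and 78.5 scaled reads in control nodal, S-type and L-type roots. Under salt it had 356.3, 230.8 and 348.9. Its lowest value was again that of control L-type roots, and control S-type, salt nodal and salt L-type roots were neighbours within counting error. DMAS1 was 1.51-fold lower in nodal roots (1.33 to 1.72) and 1.58-fold lower in S-type roots (1.31 to 1.92), neither reaching 2-fold, and 4.45-fold higher in L-type roots (3.52 to 5.67). The L-type differences of both genes rest on the control L-type library, which was the lowest of the 6 for both. The salt L-type library also had 991.3 scaled reads of photosynthesis markers against 105.8 under control, and the part of this in the result was not tested.

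The ferrous iron transporters were barely detected. IRT1 (Os03g0667500, chromosome 3, 26282052 to 26292018) had 1 read in control nodal, 5 in salt nodal and 12 in salt L-type roots, and 0 in the other 3 libraries. In L-type roots this was at least 4.34-fold higher under salt against the floor of 3 reads, at 11.5 scaled reads. The level was under the minimum of the rule, so it was not counted. The interval of IRT1 also holds the locus Os03g0667400, which had between 42.6 and 72.3 scaled reads in the 6 libraries. IRT2 (Os03g0667300, chromosome 3, 26276421 to 26277614) had 0 reads in all 6 libraries, which allows up to 3 reads, or between 2.62 and 3.87 scaled reads, in each.

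IRO3 (Os03g0379300, chromosome 3, 15000099 to 15002142), the bHLH factor known as a negative regulator, had the opposite sign to IRO2. It had 9.8, 62.0 and 28.2 scaled reads in control nodal, S-type and L-type roots, and 13.1, 127.7 and 45.9 under salt. Each salt library stood above the control library of its root type. The difference met the rule in S-type roots, where IRO3 was 2.06-fold higher (1.46 to 2.94), at the edge of the rule. Its log2 change of 1.03 became 0.98 with library totals and 0.99 with a pseudocount of 5, both under 2-fold. In L-type roots the ratio was 1.63 (1.02 to 2.63) and in nodal roots 1.34 (0.576 to 3.23), the latter within counting error. In the authors' FPKM, IRO2 stood 19.2 times as high as IRO3 in control nodal, 5.90 times in control S-type and 11.2 times in control L-type roots. Under salt these ratios were 5.53, 1.22 and 0.935, so in the salt L-type library both factors had about the same level per transcript length.

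A fit across all 6 libraries asked whether a salt difference repeated evenly over the root types. The model, limma-trend on log2(scaled reads + 1), had additive terms for root type and treatment, and its p-values measure evenness over root types and treatments, not the spread between plants. It held 7 of the 10 genes, since TOM1 had no row and IRT1 and IRT2 did not have 10 reads in 2 libraries. For salt it called 0 of 19469 loci (0.0%) at an adjusted p of 0.05, with 2501 at an unadjusted p under 0.05, and edgeR also called 0. None of the 7 genes therefore passed. NAS2 had the fitted log2 salt difference with the smallest unadjusted p of the 7, -2.89 ± 0.24 (SE, limma adjusted p = 0.264). NAS1 had -3.39 ± 0.44 (limma adjusted p = 0.359) and IRO2 -1.77 ± 0.36 (limma adjusted p = 0.359), and both, like NAS2, were lower under salt in 3 of 3 root types. YSL15 (-0.30 ± 0.71, limma adjusted p = 0.884) and DMAS1 (0.29 ± 0.59, limma adjusted p = 0.859) averaged near 0 over root types of opposite sign. Without either S-type library, NAS1, NAS2, NAS3 and IRO2 passed. Those fits called 4.58% (without control S-type) and 4.37% (without salt S-type) of all loci, and they rest on the 2 root types that keep both libraries.

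S-type lateral roots had more IRO3 and less NAS2 transcript than nodal roots. These were the 2 genes of the group past the threshold in that contrast of the fit, against 19.0% of all loci called (11.3% higher and 7.74% lower in S-type roots). NAS2 had a log2 difference of -1.75 ± 0.30 (SE, limma adjusted p = 0.0183), lower in S-type roots under both treatments. IRO3 had 2.87 ± 0.52 (limma adjusted p = 0.0211), higher under both. Neither passed when a nodal library was left out, where 0 of the 7 genes and 1.53% of loci were called without control nodal, and 0 genes and 0.0% of loci without salt nodal. NAS3 had -3.51 ± 1.42 (limma adjusted p = 0.135) and was at 0 reads in control S-type roots, at least 18.1-fold lower than in control nodal roots.

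By the rule of size, YSL15, IRO2 and IRO3 were higher in S-type than in nodal roots under control, 3 of 9 genes against 14.5% of loci. The same 3 were higher under salt, against 13.3% of loci. YSL15 was 2.51-fold higher under control (2.22 to 2.84) and 2.46-fold higher under salt (2.01 to 3.04). IRO2 was 2.02-fold higher both times (1.73 to 2.35 under control, 1.58 to 2.59 under salt), at the edge of the rule. Os01g0952900, which shares the interval of IRO2, was higher in S-type roots too. It had 1655.0 scaled reads against 9.8 under control and 2223.0 against 0.9 under salt. Its part in the IRO2 difference was not tested. Scaling by library totals in place of TMM left 1 of 9 genes higher under each treatment. The count under control was 2 with the authors' size factors, DESeq2's factors, FPKM or a pseudocount of 5, and the count under salt was 2 with a pseudocount of 5. The shares of all loci given here are those of the main rule only. NAS2 and NAS3 were lower under control, 2 of 9 against 10.4% of loci, and NAS1 and NAS2 were lower under salt, 2 of 9 against 12.3%. NAS1 differed little under control, 1.22-fold lower (1.12 to 1.33), and 4.06-fold lower under salt (2.82 to 6.03).

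**Figure D3:**
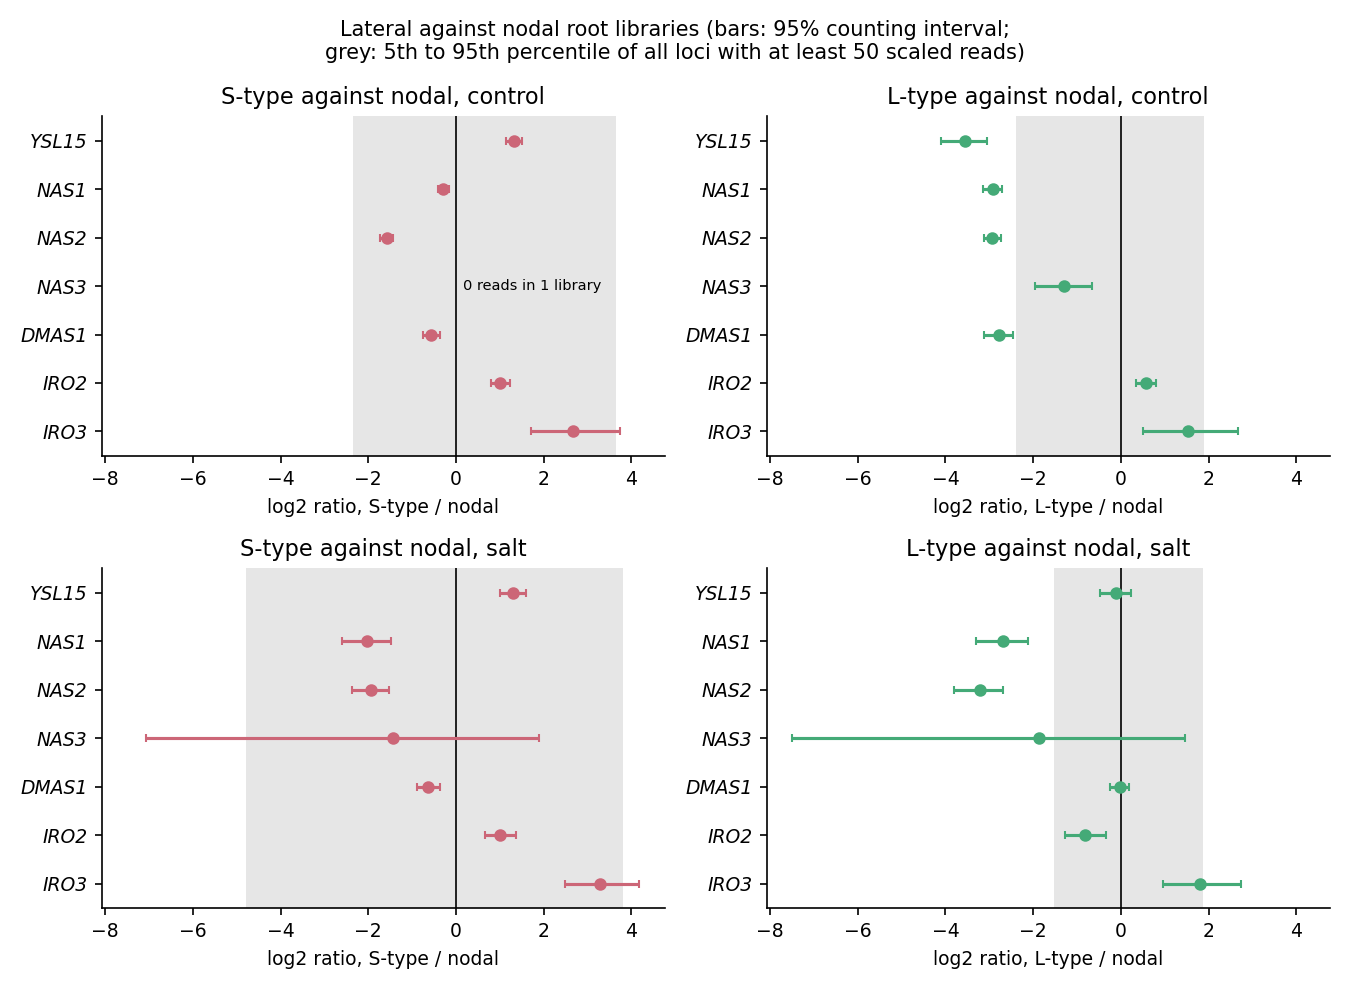
Log2 ratio of scaled reads (horizontal axes) in S-type (left) and L-type (right) against nodal roots, under control (top) and salt (bottom), 1 library against 1 library; bars are 95% counting intervals and the grey band spans the 5th to 95th percentile of the log2(scaled reads + 1) difference of all loci with at least 50 scaled reads. In control L-type roots YSL15, NAS1, NAS2 and DMAS1 lie left of the band, and under salt NAS1 and NAS2 do. The point of NAS3 in salt L-type roots, at -1.87, also lies left of the band, but its interval (-7.49 to 1.47) spans 0.

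L-type lateral roots had lower levels of the synthesis and uptake genes than nodal roots under control, but not of the bHLH factors. By the rule of size 5 of 9 genes were lower and 0 higher, where 9.98% of loci were lower and 9.31% higher. YSL15 was 11.8-fold lower (8.32 to 17.3), NAS1 7.55-fold (6.52 to 8.79), NAS2 7.61-fold (6.69 to 8.68), DMAS1 6.86-fold (5.48 to 8.66) and NAS3 2.45-fold (1.58 to 3.88). IRO2 was 1.48-fold higher (1.28 to 1.73). Os01g0952900, which shares its interval, had 112.0 scaled reads in control L-type against 9.8 in control nodal roots. Under salt only NAS1 and NAS2 were lower, 2 of 9 genes against 5.38% of loci, and 0 were higher against 6.13%. They were lower by 6.43-fold (4.34 to 9.84) and 9.28-fold (6.41 to 13.9). YSL15 and DMAS1 were then within counting error of nodal roots, with DMAS1 at a ratio of 1.02 (0.885 to 1.18). In the fit of L-type against nodal roots 0 of 19469 loci passed (3201 at an unadjusted p under 0.05, 0 by edgeR). NAS2 had a log2 difference of -3.05 ± 0.30 (limma adjusted p = 0.0985), lower under both treatments. NAS1 and NAS2 passed without control S-type (9.10% of loci called) and without salt S-type roots (9.33%).

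In L-type against S-type roots 5 of 9 genes were lower under control (12.4% of loci) and 4 under salt (9.76% of loci). None were higher, that is 0 of 9 against 6.04% of loci under control and 8.16% under salt. At levels under the minimum of the rule, NAS3 was at least 7.40-fold higher in L-type roots under control (26.5 scaled reads against 0) and IRT1 at least 2.97-fold higher under salt (11.5 against 0). YSL15 was 29.6-fold lower under control (21.0 to 43.1) and 2.68-fold lower under salt (2.15 to 3.34). IRO3 was 2.2-fold lower under control (1.39 to 3.52) and 2.78-fold lower under salt (1.95 to 4.01). NAS1 was 6.18-fold lower under control (5.30 to 7.23) and within counting error under salt, at a ratio of 1.58 (0.935 to 2.69). DMAS1 was 4.66-fold lower under control (3.67 to 5.97) and 1.51-fold higher under salt (1.26 to 1.82). IRO2 was 1.36-fold lower under control (1.18 to 1.56) and 3.54-fold lower under salt (2.62 to 4.83). Os01g0952900, which shares its interval, was also lower in L-type roots. It had 112.0 scaled reads against 1655.0 under control and 308.8 against 2223.0 under salt. In the fit 0 of the 7 genes passed by limma or by edgeR, and limma called 0.0103% of loci. An unadjusted limma p under 0.05 was found for 5 of the 7 genes and for 4256 of 19469 loci. The smallest limma adjusted p of the group was that of NAS2, 0.101, at a log2 difference of -1.30 ± 0.30, lower under both treatments. Without the salt S-type library YSL15 (-3.99) and NAS1 (-2.55) passed as lower and NAS3 (4.79) as higher in L-type roots, where 5.49% of loci were called.

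The balance between NAS1 and NAS2 was alike in most libraries and differed in control S-type roots. NAS1 made up 43.0% of the reads of both genes in control nodal roots (95% Clopper-Pearson interval 41.3 to 44.6) and 43.2% in control L-type roots (38.6 to 47.8). It made up 39.3% (35.1 to 43.7) in salt nodal, 37.8% (27.8 to 48.6) in salt S-type and 48.3% (35.2 to 61.6) in salt L-type roots. In control S-type roots the share was 64.9% (62.3 to 67.4), above the interval of every other library. The S-type share under salt rests on 34 reads of NAS1 and 56 of NAS2. With 1 library per group, whether the control S-type share repeats in other plants was not tested.

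**Figure D4:**
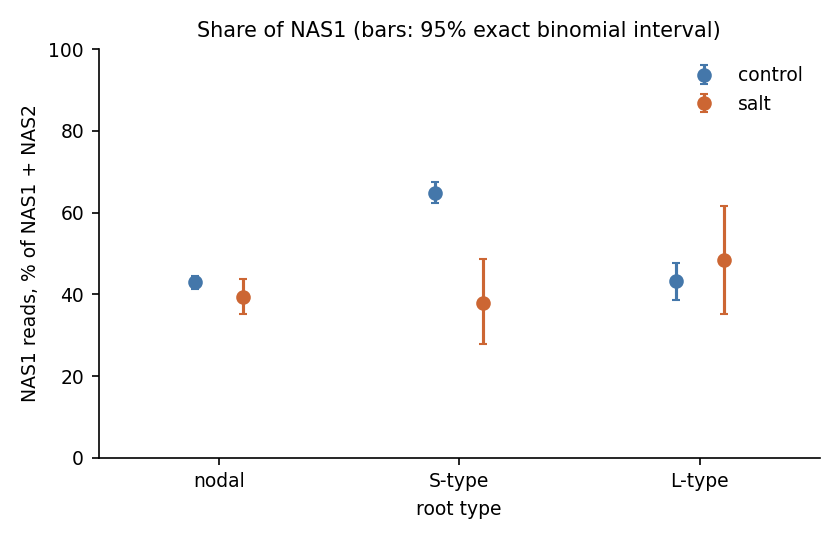
NAS1 reads as a percentage of NAS1 and NAS2 reads together (vertical axis) in 6 libraries by root type; blue is control, orange is salt, and bars are 95% exact binomial intervals. Control S-type roots stand at 64.9%, and the other 5 libraries lie between 37.8% and 48.3%.

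The loci whose pattern over the 6 libraries was most like that of IRO2 were not in the group. Likeness was the root mean square difference of centred log2(scaled reads + 1), taken over the 8709 other loci that averaged 100 scaled reads or more. Os04g0588700 (chromosome 4, 29754920 to 29762627) was nearest at 0.35 and Os01g0775100 (chromosome 1, 32759127 to 32764934) next at 0.40. Among the genes of the group that met the minimum, NAS2 lay at 1.49 (rank 6874), NAS1 at 1.57 (7165), DMAS1 at 1.58 (7203) and YSL15 at 1.61 (7301). The values were centred but not brought to a common spread, so larger differences between libraries also raised this distance. A low rank therefore does not by itself mean an unlike order of libraries. NAS1, NAS2 and IRO2 shared the sign of the salt difference in every root type but not the order of root types. Control nodal roots were highest for NAS1 and NAS2 and lowest of the controls for IRO2.

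Other loci of iron handling were listed by ID from general knowledge, 28 IDs of which 27 had a row. Membership was not checked against an annotation, so the lists are given by their counts. In salt nodal roots 3 loci were higher and 6 lower, in S-type roots 0 and 3, and in L-type roots 6 and 5, out of 28 loci. Over all loci with reads in either library, 6.67% were higher and 6.05% lower in nodal roots. The shares were 2.61% and 6.61% in S-type roots and 8.77% and 5.93% in L-type roots. The medians of the 27 listed loci with reads in some library were -0.32, -0.13 and 0.01 on the log2 scale. Over all loci with reads in either library they were 0.02, -0.09 and 0.11.

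The list of other transport and mugineic acid synthesis loci had 4 of 8 lower in salt nodal roots, 1 in the S-type and 2 in the L-type, with 1 higher in L-type roots. Over all loci 6.05%, 6.61% and 5.93% were lower in these root types, and 8.77% were higher in L-type roots. One of its loci, Os02g0306401, was lower in all 3 root types, with 1317.5, 1676.4 and 2423.2 scaled reads in control nodal, S-type and L-type roots and 365.9, 103.2 and 206.5 under salt. Nodal roots had a 3.6-fold lower level (3.23 to 4.02), S-type roots a 16.3-fold (13.0 to 20.6) and L-type roots an 11.7-fold lower one (10.2 to 13.5). All its salt libraries lay below all its controls, as for IRO2. It is named here after its values were seen.

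In the list for iron storage and vacuolar loading, 2 of 4 loci were higher and 1 lower in both salt nodal and salt L-type roots, and 0 met the rule in S-type roots. The higher loci were Os11g0106700, 3.79-fold in nodal (3.01 to 4.81) and 3.66-fold in L-type roots (2.76 to 4.92), and Os12g0106000, 3.32-fold (2.83 to 3.91) and 3.33-fold (2.84 to 3.91). The lower locus was Os09g0396900, 10.4-fold in nodal roots (7.41 to 15.2) and 4.61-fold in L-type roots (2.57 to 8.87). These 3 IDs were also named after their values were seen. The libraries in which the first pair was higher are those in which the photosynthesis markers were higher, 2400.0 against 86.1 scaled reads in nodal and 991.3 against 105.8 in L-type roots. The part of shoot-type transcripts in this was not tested. The methionine supply list had 1 of 4 lower in nodal roots, 2 in the S-type and 0 in the L-type, with 1 higher in L-type roots. Among 12 loci of the regulator list, 1 was higher in nodal roots, 0 met the rule in S-type roots, and 2 were higher and 2 lower in L-type roots. Beside the counts of these lists, 6.67% of all loci were higher and 6.05% lower in nodal roots. The shares were 2.61% and 6.61% in S-type roots and 8.77% and 5.93% in L-type roots.

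**Figure D5:**
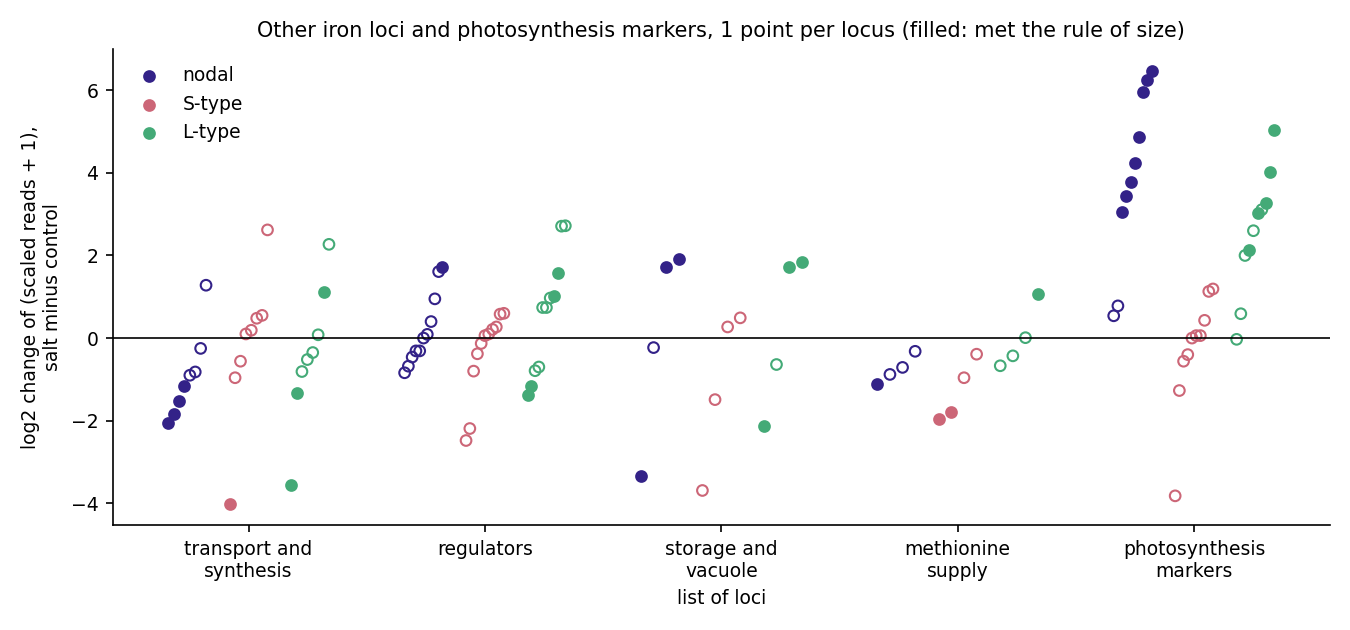
Change of log2(scaled reads + 1), salt minus control (vertical axis), for the 4 lists of other iron loci and the photosynthesis markers (horizontal axis), with 1 point per locus and 1 colour per root type; filled points met the rule of size. In salt nodal and salt L-type roots 2 storage loci and 8 or 5 photosynthesis markers are higher, while 0 of either list are in S-type roots.

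The authors' deposited table marks 1 of 135 comparisons of these genes as significant, that of NAS3 in control S-type against control nodal roots (FPKM 0 against 13.0, q-value 0.0144). The 135 include comparisons that the authors marked as not tested, namely all those of IRT1 and IRT2 and some of NAS3. The share of all comparisons marked as significant is not given here, so the count describes these genes alone. For NAS1 under salt, the authors' deposited table gives a q-value of 0.906 in nodal roots, 0.592 in S-type roots and 0.999 in L-type roots. For NAS2 the authors' deposited table gives 0.999, 0.664 and 0.889.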

How the data were processed

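Per the labels' protocols, strand-specific mRNA libraries with inserts of 200 bp were made from root RNA. Cuffdiff 2.2.1, Cufflinks 2.2.1, TopHat2 2.0.11, Bowtie and Trimmomatic 0.32 are named, with the build IRGSP-1.0, by the submitters' processing notes. The table the authors deposited holds a signal for each locus, its reads divided by 1 size factor per library. They also deposited FPKM values with p-values and q-values for 15 pairs of libraries. Whole reads were recovered by dividing the signal by the value of 1 read (99.902% to 99.986% of values above 0 were whole within 0.01).

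Reads were scaled with TMM factors (edgeR 4.0.16). The fit used limma 3.58.1 in R 4.3.3 on log2(scaled reads + 1), with 2 residual degrees of freedom and two-sided Benjamini-Hochberg adjustment over 19469 loci. Its recovery of changes was tested on simulated data in which each salt change was alike in all root types. Salt changes that differ between root types, as for YSL15 and DMAS1 here, were not simulated. Median-of-ratios factors came from DESeq2 1.42.0. A fold on the log2(scaled reads + 1) scale understates changes of loci with few reads. Folds in the text are ratios of scaled reads, and folds against 0 reads use a floor of 3 reads per library. Intervals are at 95% and, like floors, cover counting error only.

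All 10 listed genes were to be named, with the 2 loci most like IRO2. The members and lists were chosen with earlier results of these data known. The alternatives were other scalings (library totals, the authors' size factors, DESeq2's factors, FPKM), pseudocounts, filters, folds, edgeR's quasi-likelihood test and leaving out each library. No sequence is printed.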

Additional observations from a re-analysis of the deposited data

Results flagged for a closer look

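For YSL15 and DMAS1 the salt difference had opposite signs in different root types, with each counting interval away from 1. The log2 change of YSL15 in L-type roots exceeded that in nodal roots by 3.40 and that in S-type roots by 3.43. The log2 change of DMAS1 in L-type roots exceeded that in nodal roots by 2.73 and that in S-type roots by 2.80. With 1 library per group these differences were not tested, and all 4 rest on the same control and salt L-type libraries.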

How the results depend on the processing

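Of 22 salt changes of single genes recomputed under 6 alternatives each, 131 of 132 values stayed within the main counting interval and 0 turned sign; DMAS1 in L-type roots moved to 1.69 with FPKM. At 4-fold in place of 2-fold, 3 genes were lower in salt nodal roots (5 at 2-fold) and 2 in salt S-type roots (4 at 2-fold), and 1 was higher in S-type than nodal roots under control and 1 under salt (3 at 2-fold each). Library totals also gave 1 and 1 for the latter. The shares of all loci in the text are those of the main rule, so these counts describe the listed genes alone. Leaving out 1 library could change how many genes passed the limma threshold in each of the 4 contrasts. The share of all loci called moved as well. For salt the change came without either S-type library, and for S-type against nodal roots the genes were lost without either nodal library. Such a fit leaves 1 library for that root type. With edgeR, library totals, a pseudocount of 5 or no filter, as many genes passed in each contrast as in the main fit. The share of all loci called for L-type against S-type roots was 0.0103% in the main fit and 2.43% with a pseudocount of 5. For S-type against nodal roots it was 19.0% in the main fit and between 10.8% and 23.2% with these alternatives. Under 100 reads, as for IRT1, NAS3 and IRO3 in every library, depth limits what can be seen. This also held for YSL15 (34 reads) and DMAS1 (89) in control L-type roots and for IRO2 (61) in salt L-type roots. NAS1 had 34 and 29 reads, and NAS2 56 and 31, in salt S-type and salt L-type roots. No paired analysis was possible because each group is 1 library and the labels give no replicate numbers to pair by; root type is already a term of the fit, so its salt difference is taken within root types.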

Other observations

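TOM1 has no row, but the deposited table lists 4 loci with 1 shared interval on chromosome 11 (1618484 to 1646052), and the lowest of their IDs, Os11g0134950, is numbered just after that of TOM1 (Os11g0134900). They were looked at after their values were seen. Of these, 3 had 0 reads in all libraries. The fourth, Os11g0135300, had 836.3, 118.0 and 740.7 scaled reads in control nodal, S-type and L-type roots, and 292.6, 21.9 and 131.9 under salt. It was 2.86-fold lower under salt in nodal (95% counting interval 2.52 to 3.25), 5.38-fold lower in S-type (3.20 to 9.61) and 5.61-fold lower in L-type roots (4.68 to 6.77). Whether reads from TOM1 are among them cannot be told from the table.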
